A study of Mus musculus with 6 samples.

Results

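The miR-9 family is a group of miRNAs read from 3 loci of the mouse genome, and it was taken as every row of the read count table whose name starts with mmu-miR-9- or mmu-miR-9b-. Of the 810 miRNAs in the table, 3 were members: mmu-miR-9-5p, mmu-miR-9-3p and mmu-miR-9b-3p. Reads of mmu-miR-9b-5p are not analysed here. The small RNA came from small extracellular vesicles (sEV), membrane particles released by cells, which were isolated from the medium of cochlear explants of postnatal day 3 ICR mice. Explants had received 50 µM cisplatin, a platinum drug that damages the inner ear, or PBS in its place, over 48 h, and both groups were kept in medium whose serum had been freed of sEV. There were 3 libraries from cisplatin-treated explants (Cis-sEV) and 3 from PBS-treated explants (Ctrl-sEV), each pooling the sEV of about 80 explants. The Cis-sEV libraries held 1722359 to 1794175 miRNA reads and the Ctrl-sEV libraries 528952 to 718597. Because a library pools the vesicles of all cells of many explants, fewer releasing cells and less miRNA per vesicle cannot be told apart.

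A miRNA is cut from a folded hairpin, and either arm of the hairpin, named 5p or 3p, can be loaded into the silencing complex, where bases 2 to 8 (the seed) pair with target mRNAs. miR-9 is abundant in neural progenitors and neurons of the developing brain. Its 5p arm represses regulators of progenitor maintenance such as Hes1 and Nr2e1, and its 3p arm represses Rcor1, a partner of the neuronal gene repressor REST. miR-9b hairpins are annotated on the DNA strand opposite to the miR-9 hairpins, and less is known of their function.

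The 3 mature sequences are shown because both the seeds and the overlap of the strands bear on how the counts are read. They are written 5′ to 3′ as the deposited table gives them, with the seed in capitals, and they were identical to the RefSeq sequences of GRCm38.p6 at each of the 3 loci.
mmu-miR-9-5p: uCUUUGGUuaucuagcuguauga
mmu-miR-9-3p: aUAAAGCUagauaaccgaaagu
mmu-miR-9b-3p: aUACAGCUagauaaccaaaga

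The members did not share a seed with each other, and each seed occurred in 1 of the 809 rows that carry a sequence. The 21 bases of mmu-miR-9b-3p are the reverse complement of bases 1 to 21 of mmu-miR-9-5p, so these miRNAs lie on opposite strands of the same bases. mmu-miR-9b-3p also resembles mmu-miR-9-3p. Counting from 1 at the 5′ end and giving the base of mmu-miR-9-3p first, the substitutions over 21 positions were A4C, G17A, A20G and G21A, and only the first lies in the seed. Bases 5 to 16 are the same in both, and allowing gaps the sequences were 3 edits apart. The hairpins on chromosome 13, from the same table, show how the strands relate, with the annotated mature arms in capitals.
mmu-mir-9-2: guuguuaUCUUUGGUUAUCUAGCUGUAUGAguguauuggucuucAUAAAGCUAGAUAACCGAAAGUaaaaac
mmu-mir-9b-2: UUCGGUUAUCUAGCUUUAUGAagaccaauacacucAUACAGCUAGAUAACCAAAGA

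In GRCm38 the miR-9 hairpins are Mir9-1 at chr3:88215598-88215686, Mir9-2 at chr13:83738814-83738885 and Mir9-3 at chr7:79505264-79505353, all on the plus strand. They lie within long non-coding RNA genes of the same strand. Mir9-1 is intronic in each of the 5 transcripts of Gm3764 that span it, and Mir9-3 is intronic in each of the 4 transcripts of Mir9-3hg that span it. Of the 2 transcripts of C130071C03Rik that span Mir9-2, 1 holds it in an exon. The miR-9b hairpins Mir9b-1 (Gm25641), Mir9b-2 (Gm51268) and Mir9b-3 (Gm51285) are annotated on the minus strand at chr3:88215613-88215670, chr13:83738821-83738876 and chr7:79505279-79505336. Mature sequences of a name are the same at its 3 loci, so a read cannot be assigned to 1 of them. Whether strand was used in counting is not given in the sources used here. Had it not been used, reads of mmu-miR-9-5p and mmu-miR-9b-3p could not be told apart.

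mmu-miR-9b-3p, the antisense member, held most reads of the family in both groups and rose in Cis-sEV. In Cis-sEV it had 40370, 47183 and 45295 reads, and in Ctrl-sEV 4231, 6586 and 5428. Scaled to 1000000 miRNA reads per library (CPM), these were 22536, 27394 and 25246 CPM against 7838, 9165 and 10262 CPM. Every Cis-sEV library lay above every Ctrl-sEV library in CPM. The same held in reads, where the Cis-sEV libraries were larger. It also held with the TMM factors described below, as it did for 37.7% of the tested miRNAs. The Cis-sEV mean was 25059 ± 2435 CPM (SD, n = 3) and the Ctrl-sEV mean 9088 ± 1214 CPM (SD, n = 3). Among the miRNAs with reads, it took places 13 to 17 by reads within the Cis-sEV libraries, against places 20 to 27 within those of Ctrl-sEV.

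Tests between the groups used edgeR's quasi-likelihood fit on all 353 miRNAs with enough reads, with counts scaled by TMM factors, which adjust each library total for its composition. A miRNA was called where the p adjusted by Benjamini-Hochberg did not exceed 0.05 and the log2 fold change reached 1 in either direction. The log2 fold change of mmu-miR-9b-3p was 1.12 (standard error 0.15, adjusted p = 0.00502), or 2.17-fold. It was the member called, 1 of 3, while 23.5% of all tested miRNAs were called higher and 6.52% lower. The median log2 fold change of all tested miRNAs was 0.44, and mmu-miR-9b-3p lay 0.68 above that median, higher than 64.3% of the tested miRNAs. The call stood close to its limits. The log2 fold change was 0.94 without Cis-sEV replicate 2 and 0.89 with upper-quartile factors, under the limit of 1, and DESeq2 gave 1.04 with an adjusted p of 0.136. Over the 15 other fits it was positive in 15 and called in 12, with adjusted p from 0.00103 to 0.136.

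mmu-miR-9-5p, the best known arm of the family, was far less abundant than its antisense partner and did not pass the test. The Cis-sEV libraries held 2819, 2863 and 2770 reads and the Ctrl-sEV libraries 506, 777 and 728. In CPM it was at 1574, 1662 and 1544 in Cis-sEV and at 937, 1081 and 1376 in Ctrl-sEV, and these groups did not overlap. How many of the tested miRNAs were apart in CPM was not counted. Their median log2 fold change with total miRNA reads was 0.79. With TMM factors the values were 1419, 1517 and 1310 CPM against 1234, 1087 and 1505 CPM, and the groups overlapped, since Ctrl-sEV replicate 3 lay above Cis-sEV replicates 1 and 3. The log2 fold change was 0.15 (standard error 0.22, edgeR adjusted p = 0.705), which lay 0.29 below the median of all tested miRNAs. It was 0.49 with total miRNA reads (adjusted p = 0.159) and -0.073 with upper-quartile factors, so its direction was not settled by these libraries.

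mmu-miR-9-3p was the least abundant member, and 1 Ctrl-sEV library stood apart from the others. Reads numbered 587, 799 and 668 in the Cis-sEV libraries, or 328, 464 and 372 CPM. In Ctrl-sEV replicate 1 there were 81 reads (150 CPM), in replicate 2 there were 0, and in replicate 3 there were 2 (3.78 CPM). A count of 0 in replicate 2 allows a level of up to 4.17 CPM, that of 3 reads. The lowest Cis-sEV value exceeded the highest of Ctrl-sEV, as in TMM-scaled CPM they did for 37.7% of the tested miRNAs. The log2 fold change of 2.37 carried a standard error of 1.81 and did not pass the test (edgeR adjusted p = 0.428). Without Ctrl-sEV replicate 1 it was 7.39, a fitted value against libraries of 0 and 2 reads, and mmu-miR-9-3p was called (adjusted p = 0.0258).

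**Figure D1:**
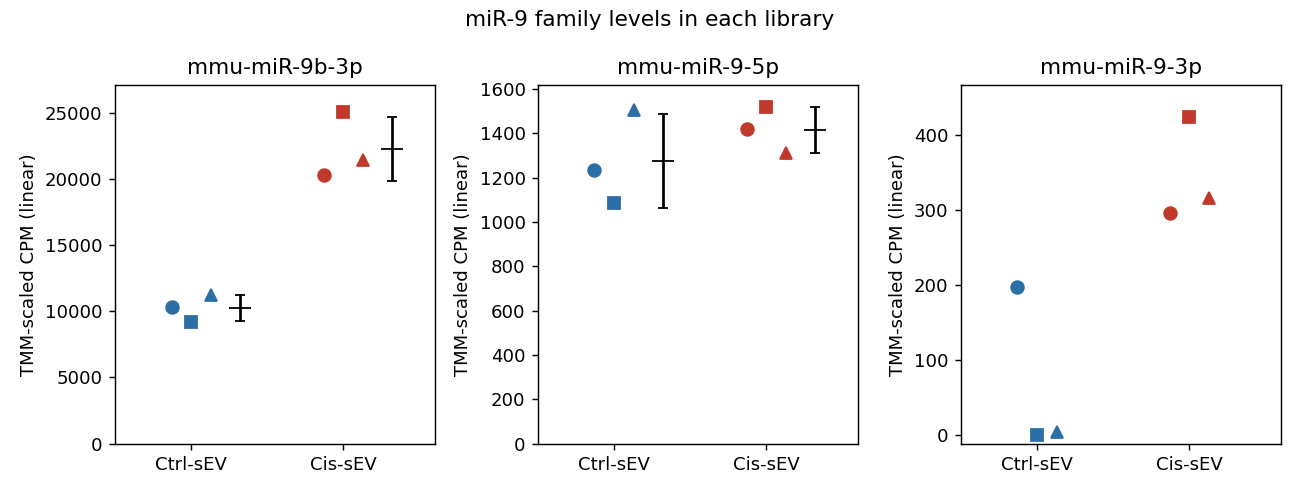
TMM-scaled CPM on linear axes of the 3 members in each library, Ctrl-sEV in blue and Cis-sEV in red, with circles, squares and triangles for replicates 1, 2 and 3 and black bars for the mean ± SD (n = 3), which are not drawn for mmu-miR-9-3p. For mmu-miR-9b-3p the Cis-sEV libraries lie between 20320 and 25008 CPM and the Ctrl-sEV libraries between 9213 and 11223 CPM, while the groups overlap for mmu-miR-9-5p.

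**Figure D2:**
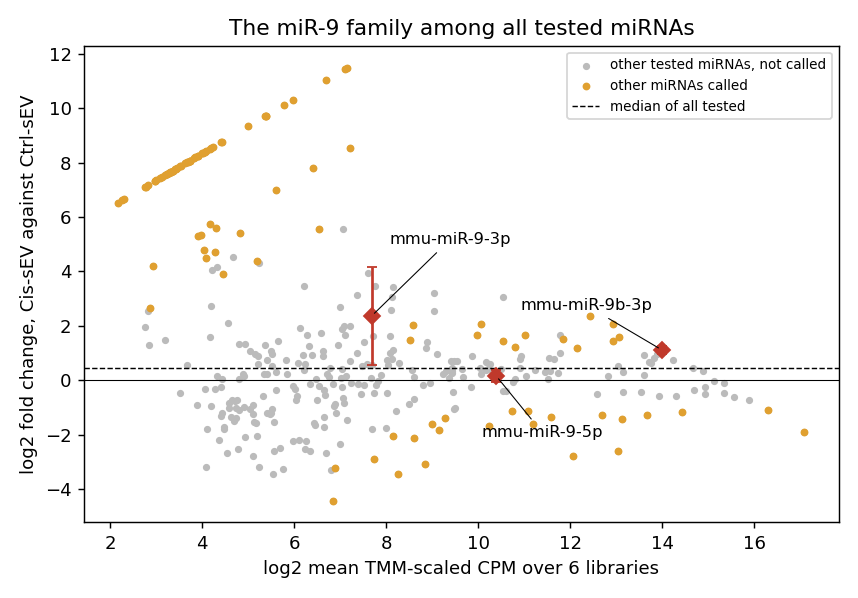
Log2 fold change of Cis-sEV against Ctrl-sEV over log2 mean TMM-scaled CPM for the 353 tested miRNAs, with the members as red diamonds with bars of 1 standard error, other called miRNAs in orange and the median of 0.44 as a dashed line. mmu-miR-9b-3p lies at 1.12 among abundant miRNAs, mmu-miR-9-5p at 0.15 and mmu-miR-9-3p at 2.37 with a wide error.

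The order of the levels was the same in each of the 6 libraries, with mmu-miR-9b-3p above mmu-miR-9-5p and mmu-miR-9-5p above mmu-miR-9-3p. Neighbours in this order were separated by more than their spread over libraries in both groups. Members differ little in length, at 21, 23 and 22 bases, so the counts were not divided by length. PCR copies and sequence-dependent capture were not corrected, so the order is one of reads. The family took 2.44, 2.95 and 2.72% of the miRNA reads of the Cis-sEV libraries, compared with 0.893, 1.02 and 1.16% for Ctrl-sEV. Over these shares the 95% Wilson intervals ran from 2.42 to 2.98% and from 0.868 to 1.19%, so counting error was small beside the gap between the groups. Of the family's reads, mmu-miR-9b-3p held 92.7 ± 0.384% in Cis-sEV (SD, n = 3), compared with 88.5 ± 0.862% in Ctrl-sEV (SD, n = 3).

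The balance between the strands was compared as a ratio of reads within a library, which does not depend on how libraries are scaled. It does depend on how reads were assigned to the strands, which is not given in the sources used here and was not tested. For each read of mmu-miR-9-5p there were 14.3, 16.5 and 16.4 reads of mmu-miR-9b-3p in the Cis-sEV libraries. In the Ctrl-sEV libraries there were 8.36, 8.48 and 7.46. The groups did not overlap, and neither did they in the 5p to 3p ratio of 36.7% of the 60 hairpins with both arms tested. The spread within a group was small, with log2 ratios of 3.97 ± 0.11 (SD, n = 3) and 3.01 ± 0.10 (SD, n = 3) after 0.5 reads were added to each count. The log2 ratio was thus 0.96 higher in Cis-sEV, a 1.94-fold difference (exact permutation test, two-sided, p = 0.1, and a design of 3 libraries against 3 allows no smaller p, with 0.15 adjusted over the 3 ratios compared). This ratio was chosen after its values were seen. As a share of the reads on both strands, mmu-miR-9b-3p took 94.0 ± 0.454% in Cis-sEV (SD, n = 3), compared with 89.0 ± 0.701% in Ctrl-sEV (SD, n = 3). With the 2 rows summed, so that the result no longer rests on strand, the log2 fold change was 1.04 (standard error 0.15).

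The ratio of the 5p to the 3p arm of miR-9 was steady in Cis-sEV and scattered in Ctrl-sEV. It was 4.80, 3.58 and 4.15 in the Cis-sEV libraries, beside 6.25 in Ctrl-sEV replicate 1. In Ctrl-sEV replicate 2, with 0 reads of the 3p arm, the 95% Clopper-Pearson interval began at 210. In Ctrl-sEV replicate 3 the 2 reads of the 3p arm gave a ratio of 364 with a 95% Clopper-Pearson interval from 100 to 3011. At the Cis-sEV balance of the arms, 24.3 reads of the 3p arm for 100 of the 5p arm, these libraries would have held 189 and 177 reads of mmu-miR-9-3p. The log2 ratios of the Cis-sEV libraries were all below those of Ctrl-sEV, and the Cis-sEV mean was 2.05 against 7.14 (difference -5.09, exact permutation test, two-sided, p = 0.1, again the lowest this design allows, and 0.15 adjusted). Of the 60 hairpins with both arms tested, 36.7% had groups that did not overlap in this ratio. In 38 of the 60 the more abundant arm outweighed the other by more in Ctrl-sEV than in Cis-sEV, with a median difference of 0.67 on the log2 scale, and 6 hairpins moved further than miR-9 that way. Against mmu-miR-9-3p, the 3p arm of the opposite strand stood at 68.8, 59.1 and 67.8 reads per read in the Cis-sEV libraries, beside 52.2 in Ctrl-sEV replicate 1. In Ctrl-sEV replicate 2 there were 6586 reads of mmu-miR-9b-3p and 0 of mmu-miR-9-3p, and in replicate 3 the ratio was 2714 on 2 reads. The log2 ratio of these 3p arms differed by -4.13 between the means of Cis-sEV and Ctrl-sEV, and the groups overlapped because Ctrl-sEV replicate 1 lay below the Cis-sEV libraries while the others lay above (two-sided exact permutation test, p = 0.4, also 0.4 adjusted).

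**Figure D3:**
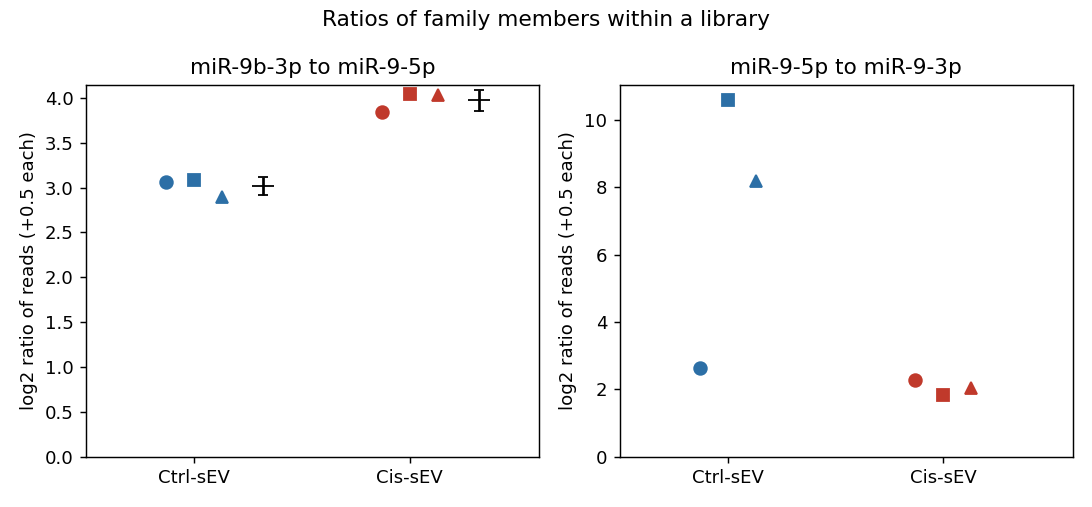
Log2 ratio of reads within each library after 0.5 reads were added to each count, on linear axes, for mmu-miR-9b-3p to mmu-miR-9-5p (left) and mmu-miR-9-5p to mmu-miR-9-3p (right), with symbols as for the levels and the mean ± SD (n = 3) on the left only. On the left the Cis-sEV libraries lie from 3.84 to 4.04 and the Ctrl-sEV libraries from 2.90 to 3.08, and on the right Ctrl-sEV replicates 2 and 3 lie at 10.6 and 8.19.

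Other miRNAs of a like level also had few or no reads in some Ctrl-sEV libraries. Within 2-fold of its mean of 388 CPM in Cis-sEV there were 57 other miRNAs. Of these, 26 had at most 2 reads in some Ctrl-sEV library, 16 in at least 2 of them, and 10 had at most 2 reads in 2 Ctrl-sEV libraries and at least 32 in the other. None of the 57 had so few reads in any Cis-sEV library, but they were chosen by their level in Cis-sEV, which left little room for it. The Ctrl-sEV libraries were also smaller, so these counts do not compare the groups. The part of such missing reads in the difference of mmu-miR-9-3p was not tested.

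Mature miRNAs that overlap on opposite strands were rare in the table. By RefSeq coordinates, available for 569 of the 810 rows, 7 pairs overlapped by at least 15 bases. mmu-miR-9-5p and mmu-miR-9b-3p formed the pair whose weaker partner had the most reads, 10463 over the 6 libraries beside 149093, and the pair with reads of both partners in every library. In the other 6 pairs the weaker partner had 6 to 426 reads in all. mmu-miR-24-3p had 134993 reads and its partner mmu-miR-3074-5p had 35. mmu-miR-203-3p had 1292 and mmu-miR-203b-5p 426. In each of those 6 pairs the partner with the later number or the letter b was the weaker, while in the miR-9 pair it was the stronger, by 14.2-fold over all libraries.

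**Figure D4:**
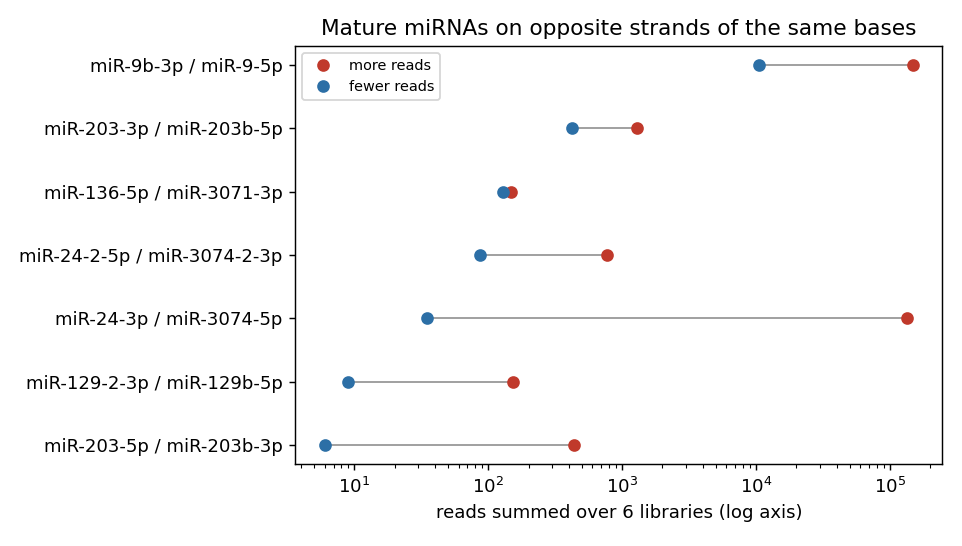
Reads summed over the 6 libraries on a log axis for the 7 pairs of mature miRNAs that overlap on opposite strands, the partner with more reads in red and the other in blue. The miR-9 pair, at 149093 and 10463 reads, is the one in which the weaker partner lies furthest to the right.

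The miRNAs with the pattern most like each member were found by the root-mean-square distance between log2(CPM + 1) values over the 6 libraries, each miRNA centred on its own mean. Nearest to mmu-miR-9b-3p were mmu-miR-143-3p at a distance of 0.19, mmu-miR-98-5p at 0.21, mmu-miR-30d-5p at 0.22, mmu-miR-1983 at 0.24 and mmu-miR-203-3p at 0.24, where the median over the tested miRNAs was 1.74. None of these 5 was called. The log2 fold changes of the first 4 were 0.77, 0.89, 0.98 and 0.88, with edgeR adjusted p of 0.0141, 0.0332, 0.0053 and 0.0472, so they missed the limit on the fold change alone. Nearest to mmu-miR-9-5p were mmu-miR-429-3p at 0.11, mmu-miR-26a-5p at 0.13, mmu-miR-146a-5p at 0.15, mmu-miR-669c-5p at 0.16 and mmu-miR-22-3p at 0.19, and none of them was called. Nearest to mmu-miR-9-3p were mmu-miR-467a-5p at 0.51, mmu-miR-450a-5p at 0.74, mmu-miR-501-3p at 0.81, mmu-miR-296-3p at 0.94 and mmu-miR-384-5p at 1.03, none of them called. In all 5, as in mmu-miR-9-3p, Ctrl-sEV replicate 1 had reads and replicate 2 had 0. The members were not each other's nearest, with mmu-miR-9-5p in place 39 for mmu-miR-9b-3p and mmu-miR-9-3p in place 336 for both others.

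Other miRNAs known for neural progenitors, neurons or their differentiation did not move as 1 group. Of 23 listed, 22 were rows of the table and 19 had enough reads, of which 6 were called higher and 2 lower. Their median log2 fold change was 1.30, beside 0.44 for all tested miRNAs and 23.5% called higher. Putting miRNAs without Ctrl-sEV reads at their bound could not move it, since each bound lies above this median. mmu-miR-153-3p, mmu-miR-124-3p, mmu-miR-129-2-3p, mmu-miR-212-3p, mmu-miR-17-5p and mmu-miR-106b-5p had at most 3 reads in any Ctrl-sEV library. They passed the filter through the larger Cis-sEV libraries alone. They enter this median, and those with at most 1 Ctrl-sEV read also enter the calls. Those called higher included mmu-miR-218-5p, known from motor neurons, at 12874 CPM in Cis-sEV against 3686 CPM (log2 fold change 1.45). mmu-miR-25-3p, of a cluster that acts in progenitor proliferation, had 1960 and 351 CPM (2.07). mmu-miR-153-3p and mmu-miR-124-3p, both enriched in neurons, and mmu-miR-129-2-3p had 0 reads in every Ctrl-sEV library. Against a floor of 3 reads over the Ctrl-sEV group they were at least 183-fold, 24.9-fold and 17.1-fold higher in CPM. mmu-miR-212-3p, with 27, 72 and 117 reads in Cis-sEV against 0, 1 and 0, was the sixth.

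Those called lower were mmu-miR-125a-5p, from 1706 to 641 CPM (log2 fold change -1.70), and mmu-miR-7b-5p, from 198 to 11.4 CPM (-4.43). The 3 most abundant of the list were not called. mmu-miR-181a-5p was at 43132 CPM in Cis-sEV against 51063 CPM, mmu-let-7b-5p at 32230 and 29821 CPM, and mmu-miR-125b-5p at 18619 and 7905 CPM. With single libraries left out, 4 to 9 of the list were called higher and 0 to 2 lower, while 40 to 144 of all tested miRNAs were called higher and 11 to 30 lower. Without Cis-sEV replicate 2 or 3 none was called lower, beside 13 of 342 and 11 of 344 tested miRNAs. Without Ctrl-sEV replicate 2 or 3 there were 9 of 20 higher, beside 99 of 442 and 144 of 441 tested miRNAs. With limma-voom 4 were higher and 0 lower, beside 30 higher and 13 lower of all 353. With the replicate block 2 were higher and 0 lower, beside 13 and 11 of 353. The counts of the list thus moved together with the number called in all.

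Markers of cell types that the explants could hold were measured beside the family, and their calls stand beside 23.5% called higher and 6.52% lower among all tested miRNAs. The miR-183 cluster of hair cells and sensory neurons, 3 of 3 tested, summed to 59073 to 81525 CPM in Cis-sEV and 54984 to 55757 CPM in Ctrl-sEV, and these sums overlapped with TMM factors (50138 to 73508 against 56046 to 73319). Its members differed. mmu-miR-96-5p was called higher (log2 fold change 2.08), a call lost without Ctrl-sEV replicate 1 or 2, with DESeq2 and with limma-voom. The most abundant, mmu-miR-183-5p, was at -0.49 (edgeR adjusted p = 0.0419) and mmu-miR-182-5p at 0.18, and neither was called.

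Of 6 neuronal markers, 3 were called higher and 0 lower, and their summed level was 13457 to 14191 CPM in Cis-sEV against 3362 to 5031 CPM in Ctrl-sEV, with 2 of the 6, mmu-miR-124-3p and mmu-miR-153-3p, at 0 in Ctrl-sEV. Most of this sum was mmu-miR-218-5p, and all 6 markers are also on the neural list above, so this is not a separate observation. Without Cis-sEV replicate 1 there were 2 called higher, beside 40 of 341 tested miRNAs. Without Ctrl-sEV replicate 2 there were 4, beside 99 of 442. DESeq2 gave 2, beside 82 of 810, and the replicate block gave 1, beside 13 of 353. Oligodendrocyte and Schwann cell markers summed to 235 to 282 CPM and 71.8 to 330 CPM (3 of 4 tested, 0 called), with the defining mmu-miR-219a-5p at 0 reads but for 4 in 1 Cis-sEV library. Mesenchymal markers summed to 6062 to 9821 CPM and 3018 to 5307 CPM (5 of 5 tested, 0 called), and with TMM factors to 5466 to 8965 and 3034 to 5804 CPM, which overlap. This sum holds mmu-miR-199a-3p, at TMM-scaled 289, 3453 and 163 CPM in Cis-sEV and 1414, 1.40 and 1615 CPM in Ctrl-sEV. It leaves out mmu-miR-199b-3p, at 4094, 15.4 and 3900 CPM and at 0, 684 and 269 CPM. Libraries high in 1 of these names were low in the other, so the range and overlap of the sum depend on leaving mmu-miR-199b-3p out. How reads were assigned between the names was not tested.

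Red cell markers summed to 1153 to 1306 CPM and 1509 to 3330 CPM, with the 2 tested, mmu-miR-451a and mmu-miR-486a-5p, called lower (-1.15 and -3.47). With any single library but Ctrl-sEV replicate 3 left out, 1 of them was called, while 11 to 30 of all tested miRNAs were called lower. With limma-voom or the replicate block 0 were called, beside 13 and 11 of 353 called lower. Leukocyte markers summed to 430 to 674 CPM and 399 to 561 CPM (2 tested, 0 called). mmu-miR-9b-3p and the neuronal sum were higher in every Cis-sEV library than in any Ctrl-sEV library with and without TMM factors, as 37.7% of the tested miRNAs were with them, and the part of these cell types in its rise was not tested.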

How the data were processed

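Small RNA of 18 to 30 nt from sEV was sequenced by the authors on the DNBSEQ platform, aligned to GRCm38.p6 with Bowtie2 and annotated with AASRA and CMSearch, with miRBase first in precedence. Versions are not given in the sources used here. The deposited table holds the read count of each mature miRNA in 6 libraries, unnormalized. It also gives the authors' mean count of each group, a signal column that was deposited beside the counts and not used.

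Counts were tested in R 4.3.3 with edgeR 4.0.16 (TMM, filterByExpr with minimums of 10 and 15 reads, quasi-likelihood test, Benjamini-Hochberg adjustment over 353 miRNAs). DESeq2 1.42.0, limma 3.58.1 voom, other scalings and filters, the replicate number as a block and each library left out were alternatives. Fits were tested on simulated data with larger changes than that of mmu-miR-9b-3p and the same spread setting for every miRNA. The simulation thus does not cover changes of its size or rows with scattered Ctrl-sEV counts. Ratios within a library were compared by exact permutation with scipy 1.17.1. Intervals and floors cover counting error only, since PCR copies were not told apart, and reads of different miRNAs were compared without correction for sequence-dependent capture.

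Named miRNAs were the members, the 5 nearest in pattern to each, miRNAs sharing a seed with a member (there were none), and of each list those called and the 3 most abundant, which for the marker lists are given within the sums. Lists covered neural miRNAs and markers of hair cells, neurons, oligodendrocytes and Schwann cells, mesenchyme, red cells and leukocytes. Antisense partners and miRNAs of like level were added after values were seen. The members and lists were chosen with earlier results of these data known.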

Additional observations from a re-analysis of the deposited data

How the results depend on the processing

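The number of called miRNAs, 106 in all (83 higher and 23 lower), was 43 with limma-voom and 53 to 169 with single libraries left out, lowest without Cis-sEV replicate 1 and highest without Ctrl-sEV replicate 3. With total miRNA reads 97 were higher and 11 lower. With the replicate block 24 were called. Same-numbered libraries did not deviate together (correlations of -0.049, -0.18 and -0.015), so the numbers were not taken to pair the samples. Under the block mmu-miR-9b-3p was still called (1.12, adjusted p = 0.0176) and the other members were not.

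The log2 fold change of mmu-miR-9b-3p fell under the limit of 1 with upper-quartile factors (0.89) and lost its adjusted p with DESeq2 (1.04). With single libraries left out it ran from 0.94 to 1.29. That of mmu-miR-9-3p ran from 2.00 to 7.39, and that of mmu-miR-9-5p turned to -0.073 with upper-quartile factors. Relative to the median of all tested miRNAs, mmu-miR-9b-3p stayed 0.66 to 0.68 above it and mmu-miR-9-5p 0.29 to 0.31 below it over 5 scalings, whose medians ran from 0.22 to 0.79. Chosen after seeing the data, mmu-miR-9b-3p summed with mmu-miR-9-3p gave 1.16, and summed with mmu-miR-9-5p 1.04. Ratios within a library kept their direction with 1 read added in place of 0.5 and with single libraries left out, where the difference for the arms of miR-9 ran from -7.34 without Ctrl-sEV replicate 1 to -3.36 without Ctrl-sEV replicate 2. Without the 10 most abundant miRNAs in the denominator the family's share was 4.89% in Cis-sEV and 2.52% in Ctrl-sEV. Apart from the sums and the share, which moved by their construction, the cause of these moves was not tested. The level of mmu-miR-9-3p in Ctrl-sEV rests on 81, 0 and 2 reads, where 123, 189 and 177 would stand at the Cis-sEV balance of the arms.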
